A study of Mus musculus with 13 samples.

Results

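Tshz2 was followed across all dissociated neurons and brain sections of a study of the mouse retrosplenial cortex, a midline cortical area. The gene was chosen by name with earlier results of these data in view, and its count was then read in every cell and every spot. It is 1 of 15114 genes in the table of cells and 1 of 32285 genes in the table of spots. At least 1 Tshz2 count was present in 636 of 765 cells and in 418 of 1973 spots. The cells were neurons of wild-type B6 mice, microdissected from acute slices, dissociated and pooled across slices. They form 1 group of 11 samples. Animal 1 gave samples 1 to 3, animal 2 gave 11 to 14 and animal 3 gave 15 to 18, and each cell carries a dissection level of anterior, medium or posterior. The sections were flash-frozen brain cut at 10 µm and profiled on Visium slides, whose spots each collect the RNA of a patch of tissue, often of several cells. The 2 libraries go by the names in their columns, S4 and S8, and were not matched to the labelled sections here. No treatment or genetic change is named for either group, the ages of the animals are not given in the sources used here, and cells pooled across slices cannot be traced to a single slice.

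Tshz2 encodes teashirt zinc finger homeobox 2, a DNA-binding protein of the Teashirt family, whose founding member patterns the body of the fly. Teashirt proteins act mainly as repressors of transcription and can recruit corepressors such as the C-terminal binding proteins. In the mouse neocortex the transcript is known as a marker of near-projecting neurons of the deep layers. In the retrosplenial cortex, the superficial granular neurons and the deep projection neurons differ in many marker genes, so Tshz2 is described below against markers of each layer class.

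The depth ranged from 2306470 to 15974543 counts per sample of cells, with sample medians of 54532 to 210874 counts per cell, while the sections held 8436518 counts in S4 and 6389042 in S8. Animal 1 was the shallowest. The labelled cell type was checked on the transporter genes: Slc17a7, the vesicular glutamate transporter of most cortical projection neurons, had a count in 756 of 765 cells, and Gad1, a GABA-synthesising enzyme, reached 50 CPM (counts per 1000000 counts) in 0 cells, which allows a share of up to 0.392% of cells at that level. Of the position barcodes of the spots, 162 occur in both sections.

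Tshz2 in single cells was either near 0 or high, with little between. It had 0 counts in 129 cells (16.9%) and exactly 1 count in 32 cells, the cells just outside and just inside the limit of 1 count. Another view of the same gap is that 48 cells held Tshz2 above 0 but below 50 CPM, 6 cells lay between 50 and 100 CPM, and 582 cells lay at 100 CPM or more. Among the 588 cells at 50 CPM or more (76.9% of all), the median was 725 CPM with quartiles of 440 and 1025 CPM, and the highest cell reached 2596 CPM. All 129 cells at 0 had an Slc17a7 count. Their median depth was 127589 counts, against 140704 in the cells with a Tshz2 count. Within animals the order differed: the cells at 0 had 56517 against 67489 counts in animal 1 and 127767 against 135005 in animal 2. In animal 3 they were the deeper ones, with 197757 against 183625 counts.

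In sums over each sample, Tshz2 stood at 654 CPM in sample 1, 645 in sample 2 and 829 in sample 3 of animal 1. It stood at 421, 454, 521 and 553 CPM in samples 11 to 14 of animal 2, and at 541, 661, 567 and 682 CPM in samples 15 to 18 of animal 3. Sample 3 was the highest and sample 11 the lowest, and no sample of the second animal reached the lowest value of the first. The share of cells with a count ran from 70.7% in sample 11 to 94.7% in sample 18, so the order of the shares was not the order of the levels.

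Tshz2 was lowest at the anterior level in every animal. In CPM of summed cells, animal 1 gave 556 anterior, 816 medium and 737 posterior, animal 2 gave 417, 591 and 520, and animal 3 gave 479, 692 and 697. The means over animals were 484 ± 69.7 CPM at the anterior level, 700 ± 113 at the medium level and 651 ± 116 at the posterior level (SD, n = 3 animals each). Over animals the anterior range lay wholly below the medium range, and the posterior range overlapped both. The medium level exceeded the anterior level by 0.53 ± 0.03 on the log2 scale (SD, n = 3), in 3 of 3 animals and in 11 of 11 samples. The posterior level exceeded the anterior one by 0.42 ± 0.11, in 3 of 3 animals and 9 of 11 samples. Posterior and medium levels were not ordered alike: the mean difference was -0.11 ± 0.10, with the posterior level higher in 1 of 3 animals and 4 of 11 samples. These levels belong to the pattern for which the gene was chosen and were therefore not tested. The share of cells with a count averaged 78.4 ± 7.30% anterior, 88.4 ± 8.50% medium and 82.0 ± 9.79% posterior (SD, n = 3).

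**Figure D1:**
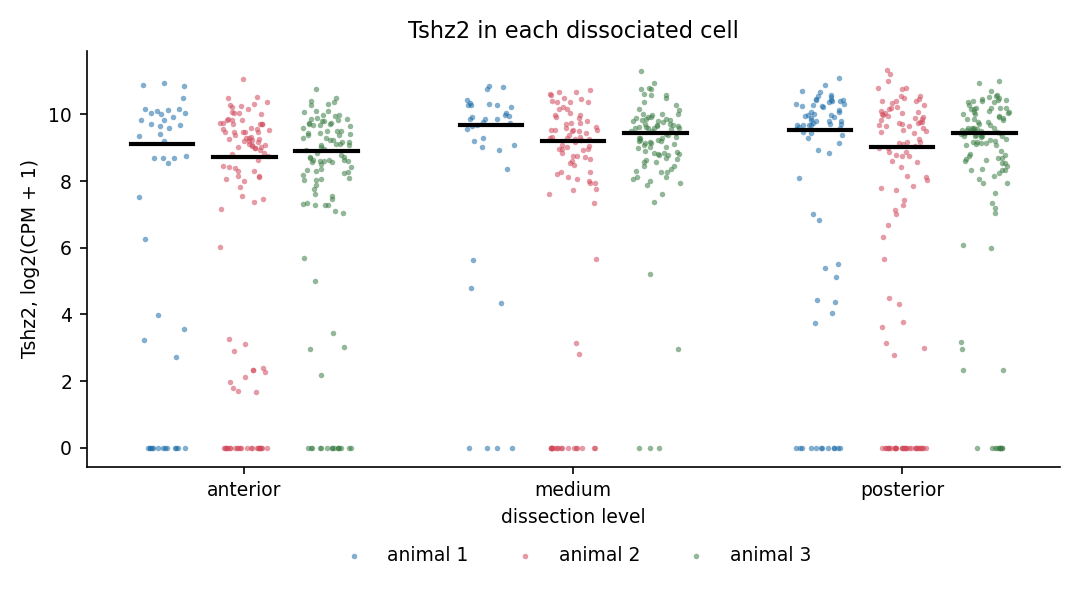
Tshz2 in each of the 765 cells as log2(CPM + 1) (y axis) by dissection level (x axis) and animal (colour), where each point is a cell and each black bar the level of the cells summed within that animal and dissection level. Most cells lie in an upper band or at 0, and within each animal the anterior bar is below the other bars.

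Cells were grouped by all genes except Tshz2 into 11 clusters, numbered by size and described by the genes that lead them, without cell type names. Tshz2 was found in nearly every cell of some clusters and in few cells of others, and these shares and levels are a description with no test. Where at least 10 cells of an animal were summed, cluster 8 (led by Calb1, Ddit4l and Penk) stood at 1133 ± 70.2 CPM (SD, n = 2 animals), cluster 2 (Thsd7a, Pygm and Hsd11b1) at 926 ± 206 (n = 3) and cluster 7 (C1ql2, Pvalb and Nrtn) at 776 ± 271 (n = 3). Cluster 6 (Ptprm and Aldh1l1) stood at 701 ± 147 CPM (n = 2) and cluster 1 (Calb1, Penk and Ddit4l), with 203 cells, at 625 ± 130 (n = 3). Cluster 3 (C1ql2, Qrfpr and Reln) stood at 463 ± 196 CPM (n = 2) and cluster 5 (Ighm, Rprm and Syt6) at 372 ± 135 (n = 3). Each of these 7 clusters overlapped over animals with its neighbour in the order.

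Below them lay a gap. Cluster 4, led by Penk, Oprk1 and Osr1, held 12.9 ± 8.17 CPM (SD, n = 3 animals), with 9.30, 7.18 and 22.3 CPM in animals 1 to 3, while no animal was below 283 CPM in cluster 5. Of its 74 cells, 56 had no Tshz2 count, 11 had exactly 1, and only 2 reached 50 CPM. Those 2 cells held 28 of the 32 counts of animal 2 and 122 of the 131 of animal 3, and without the cell with the most counts in each animal the mean was 3.08 CPM. Cluster 11, led by Cplx3, Tnmd and Ctgf, held 3 Tshz2 counts over 11 cells, 1 each in 3 cells. Cluster 9 (Ccdc80, Gpr115 and Blnk) had a count in 11 of 24 cells, of which 3 reached 50 CPM, and stood at 65.7 CPM in animal 2, the single animal with 10 cells there. In that animal 1 cell held 151 of the 177 counts, and the level without it was 10.2 CPM. Cluster 4 alone supplied 43.4% of all cells at 0, clusters 3 and 5 supplied 19 cells each, cluster 9 supplied 13 and cluster 11 supplied 8. A count was present in all 122 cells of cluster 2 (exact 95% binomial interval from 97.0%) and all 38 cells of cluster 8 (from 90.7%).

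**Figure D2:**
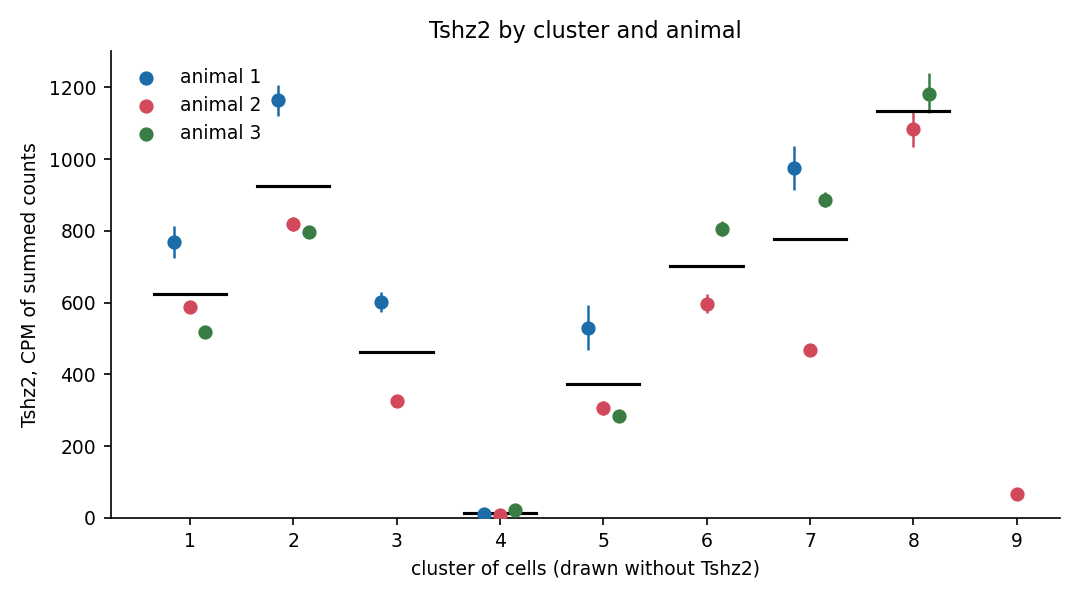
Tshz2 in CPM of summed counts (y axis, linear from 0) by cluster (x axis), for each animal with at least 10 cells of that cluster; thin bars are exact 95% Poisson intervals, which cover counting error only, and black lines are means over animals. Cluster 4 lies near 0 in 3 animals, and clusters 2 and 8 are the highest of those drawn.

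A small cluster held the highest pooled level. Cluster 10 has 11 cells from 3 animals and is led by Kcnip1, Pvalb and Nxph1. All 11 cells carried Tshz2, at a pooled 1441 CPM and at 1406, 1570 and 1392 CPM in animals 1 to 3, from 2, 3 and 6 cells. Lypd1, a near-projecting marker that encodes a GPI-anchored modulator of nicotinic receptors, was at 1312 CPM there, against 2.65 to 848 CPM in the other clusters. Vwc2l, a secreted protein of the Brorin family, was at 185 CPM, against 0.796 to 21.3 CPM elsewhere. Slc17a6, the second vesicular glutamate transporter, was at 296 CPM in the same cells, and Gad1 was at 0 counts. Slc17a8 and Trhr, the other near-projecting markers listed, have no row in the table of cells, so the cluster rests on too few markers to be named.

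The difference between the anterior and medium levels was not of one size across clusters. In cluster 5, Tshz2 went from 192 to 991 CPM in animal 1, from 174 to 254 in animal 2 and from 133 to 407 in animal 3. That is 1.51 ± 0.92 on the log2 scale (SD, n = 3), and the cells with a count there were 3 of 6, 5 of 11 and 5 of 10 at the anterior level, against 9 of 9, 10 of 15 and 13 of 13 at the medium level. In cluster 6 the level went from 307 to 729 CPM in animal 2 and from 490 to 1046 in animal 3, a difference of 1.17 ± 0.11 (n = 2). In cluster 7 it went from 233 to 884 CPM in animal 2 and from 502 to 859 in animal 3 (1.35 ± 0.81, n = 2). The most populous clusters did not share this: cluster 1 averaged 589 CPM anterior and 591 medium (0.04 ± 0.39, higher in 1 of 3 animals), and cluster 2 averaged 950 and 893 (-0.07 ± 0.14, higher in 1 of 3 animals). Sums of at least 3 cells were used here, so single values rest on few cells, and the differences between clusters were not tested. Cluster composition also moved with the level: all 76 cells of cluster 3 were posterior, and cluster 5 made up 10.5% of anterior, 17.1% of medium and 2.40% of posterior cells. The part of composition in the pooled difference was not tested.

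Of 5 markers of the middle layers and the retrosplenial cortex, 3 went with Tshz2 in nearly every cell. Marker shares here and below pool the cells of animals 1 to 3, whose own shares were 80.9%, 76.3% and 90.9%. The intervals treat cells alike and leave out the spread between animals. Of cells with Scnn1a, an epithelial sodium channel subunit, 162 of 164 had a Tshz2 count (98.8%, exact 95% interval 95.7 to 99.9%), against 78.9% of cells without it. The share was 97.6% for Tnnc2, a troponin C, and 96.0% for Hsd11b1, a glucocorticoid-activating enzyme. The others of the 5 were nearer to the cells without the marker. Rorb, an orphan nuclear receptor of layer 4, gave 89.8% of 49 cells against 82.7%. Whrn, the scaffold protein whirlin, gave 87.3% of 150 cells against 82.1%, but 84.8% against 92.6% in animal 3. Beyond this class, Slc17a6 gave 96.6% against 79.0% of the rest. Of the GABAergic markers, Pvalb, a calcium-binding protein best known from interneurons, gave 97.9% against 79.8%. Gad1 gave 91.3% of 46 cells against 82.6%, and Gad2 all 13 cells. Sst went the other way, with 78.6% of 70 cells against 83.6%. The superficial markers gave 88.5% against 79.1% for Calb1 and 90.6% against 82.6% for Otof. After thinning each cell to 54512 counts, which leaves out 77 shallower cells, the shares were 99.2% for Scnn1a, 98.2% for Pvalb, 100% for Tnnc2, 97.0% for Slc17a6 and 95.4% for Hsd11b1. All 9 cells without an Slc17a7 count had Tshz2, but their median depth was 33235 counts, against 139670 in the cells with it.

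Several markers of deep layers had lower shares and some had higher ones, given here as a description. For the layer 6 intratelencephalic markers, the share of marker cells with Tshz2 was 30.2% for Osr1 (13 of 43 cells, exact 95% interval 17.2 to 46.1%), 46.2% for Oprk1, 51.9% for Cdh9 and 59.6% for Car12. At 2 or more Tshz2 counts the share was 6.98% in Osr1 cells. The layer 6 corticothalamic markers gave 73.6% for Rprm, 72.5% for Foxp2 and 68.6% for Syt6. Crym, of the same list, gave 80.8% against 84.8% of the rest. Bcl11b, a transcription factor of subcerebral neurons, gave 69.9% of 316 cells, against 92.4% of the cells without it. Fezf2, the transcription factor that specifies such neurons, gave 82.9% of its cells and 83.3% of the rest. Of the other layer 5 extratelencephalic markers, Parm1 gave 88.0% against 77.4%, Chst8 85.7% against 81.4%, and C1ql2 83.1% in both groups. By animal, C1ql2 gave 76.5% against 83.2%, 79.4% against 75.5% and 94.2% against 90.3% in animals 1 to 3. The layer 5 intratelencephalic markers were split. Etv1 gave 90.1% against 72.5%, Scx 84.8% against 83.1%, Deptor 84.2% against 82.5% and Il1rapl2 68.4% against 84.8%. By animal, Deptor gave 74.5% against 84.5%, 80.6% against 74.1% and 91.0% against 90.9% in animals 1 to 3. The layer 6b markers all had lower shares than the cells without them. Ctgf gave 80.0% of 60 cells against 83.4% of the rest, and Cplx3 24 of 32 cells against 83.5%. Moxd1 gave 5 of 11 cells and Nxph4 4 of 10, each against 83.7% of the rest. The interval for Nxph4 was 12.2 to 73.8%. In animal 3 the order was reversed for Ctgf (96.0% against 90.5%) and Cplx3 (all 8 cells against 90.7%).

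**Figure D3:**
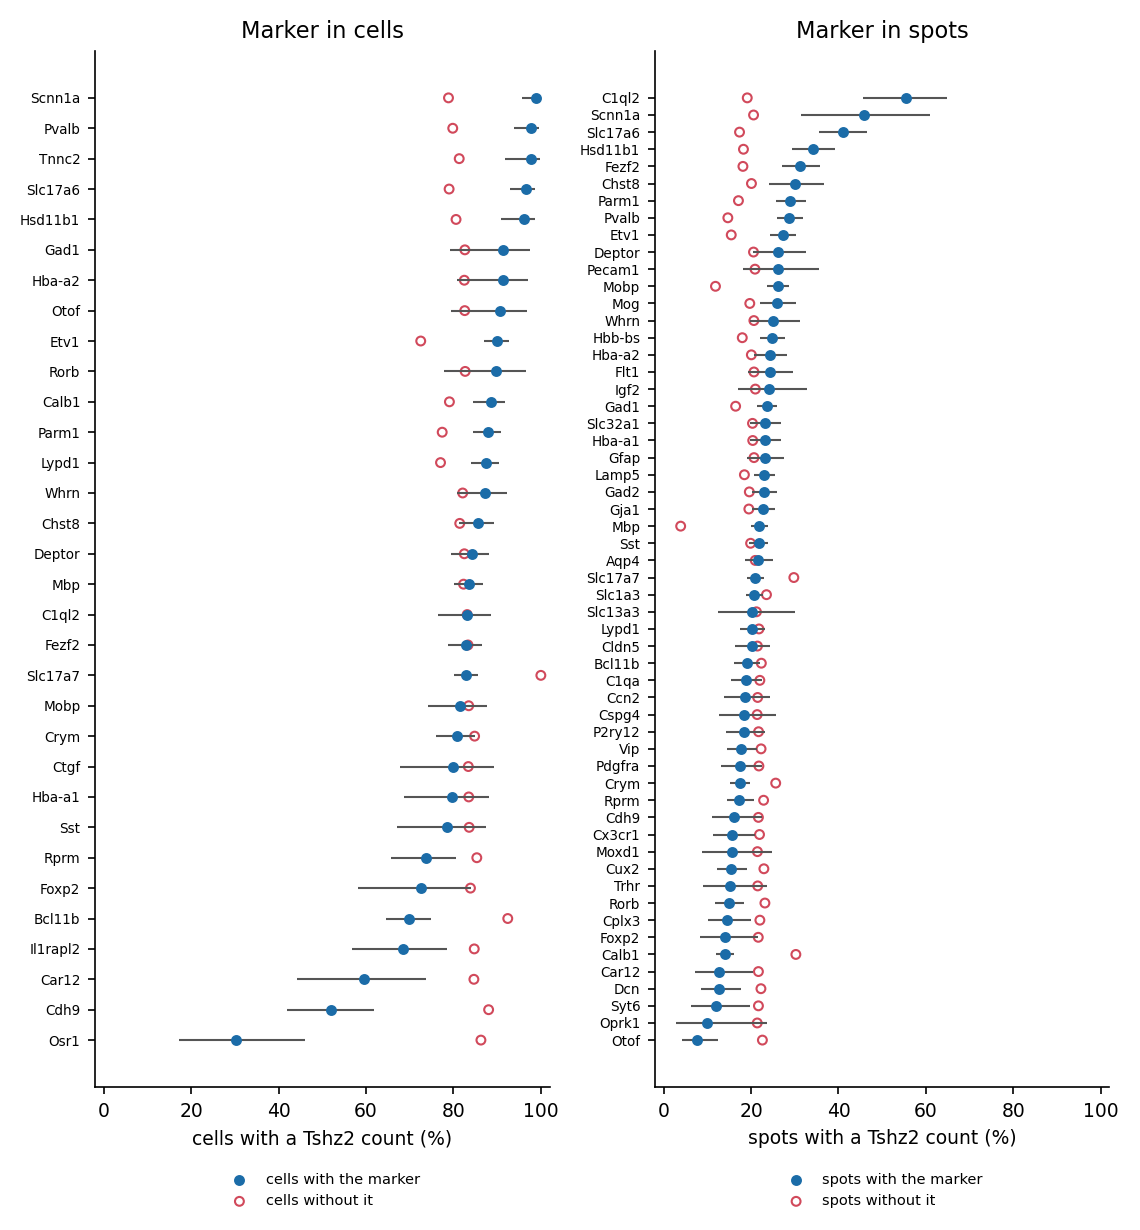
Share of cells (left) or spots (right) with a Tshz2 count (x axis, percent) among those with a given marker (filled points, with exact 95% binomial intervals) and among those without it (open points), for markers present in at least 40 cells or spots. Scnn1a is at the top in cells and C1ql2 in spots, and Osr1 is at the bottom in cells and Otof in spots. Cells are pooled over animals and spots over sections, so the intervals cover counting error only.

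To ask which other genes differed, each animal's cells were summed once over those with a Tshz2 count and once over those without, and the sums were compared in edgeR's quasi-likelihood test with the animal as a block. Cells with Tshz2 held more Thsd7a, Pygm and Ddit4l, among others, and cells without it more Aspg, Cryab and Nnat. Co-detection with listed cell type markers belongs to the pattern for which Tshz2 was chosen, so the differences of those markers are given as a description, with no p, in cells and in spots, and calls among them support nothing. Of 13323 other genes tested, 144 were called higher (1.08%) and 153 lower (1.15%) at a Benjamini-Hochberg adjusted p under 0.05, together 2.23%. The median log2 difference of all genes was 0.06. Cells with and without Tshz2 also differed in cluster: all 122 cells of cluster 2 had a count, and cluster 4 supplied 43.4% of the cells at 0. The part of this mixture in the calls and their p-values was not tested. The counts lean on single animals: without animal 1 the calls were 9 higher and 4 lower, without animal 2 they were 22 and 19, and without animal 3 they were 239 and 209. Without the animal block there were 99 and 73, and DESeq2 called 425 and 372.

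The genes higher with Tshz2 included 3 that were almost absent from the other cells. Pvalb stood at 46.2, 115 and 38.2 CPM in the cells with Tshz2 of animals 1 to 3, and the cells without held 3 Pvalb counts in all, a pooled ratio of 401 (exact counting interval 137 to 1945). Tnnc2 stood at 20.4, 16.7 and 28.8 CPM with Tshz2 and at 2 counts in all without (ratio 215, 59.5 to 1777). Scnn1a stood at 31.5, 21.6 and 11.4 CPM with and at 2 counts in all without (ratio 153, 42.2 to 1263). All 3 are listed markers.

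Most of the other higher genes lead clusters with high Tshz2. Thsd7a, Pygm, Hbegf and Eps8l2 are among the leading genes of cluster 2, and Ddit4l among those of clusters 1, 6 and 8. Thsd7a, a membrane protein with thrombospondin domains, had 92.0, 94.1 and 67.2 CPM with Tshz2 and 0.510, 2.27 and 0.352 CPM without (log2 difference 6.11, SE 0.42, adjusted p = 0.00117). Pygm, the muscle form of glycogen phosphorylase, had 103, 72.0 and 74.4 CPM with and 2.04, 0.988 and 2.11 without (5.66, SE 0.31, adjusted p = 0.000511). Ddit4l, an inhibitor of mTOR signalling, averaged 112 CPM with and 1.53 without. Both groups of sums were fully apart for each of these genes. The others named by size were Rspo1, a secreted Wnt agonist (log2 difference 5.64), Hbegf, a ligand of the EGF receptor (5.60), Evc2, a ciliary protein (5.15), and Eps8l2, an actin regulator (4.85). All 10 were higher in 3 of 3 animals.

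The genes lower with Tshz2 were led by Aspg, an asparaginase, at 3.59, 2.02 and 0.312 CPM with and 23.5, 23.3 and 33.9 CPM without (log2 difference -4.21, SE 0.82, adjusted p = 0.0485). Osr1, a zinc finger transcription factor that also marks layer 6, averaged 1.71 CPM with and 25.5 without (-3.82, SE 0.42). Cryab, a small heat shock protein, had 32.6, 23.2 and 32.4 CPM with and 142, 198 and 308 without (-2.85, SE 0.23, adjusted p = 0.0027). In each of the 3, the lowest animal without Tshz2 was above the highest animal with it. The rest were Pgam2, a muscle phosphoglycerate mutase (-3.65), Plaur, the urokinase receptor (-3.48), Pcp4l1 (-3.24), Rgs12, a regulator of G protein signalling (-3.19), Nnat, the imprinted neuronatin (-3.12), Plekha2, a phosphoinositide-binding adaptor (-2.90), and Arhgap25, a Rac inhibitor (-2.88). Of the 20 genes named for cells, 16 lost the call without animal 1, 12 without animal 2 and 1 without animal 3, and none changed direction under any alternative.

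**Figure D4:**
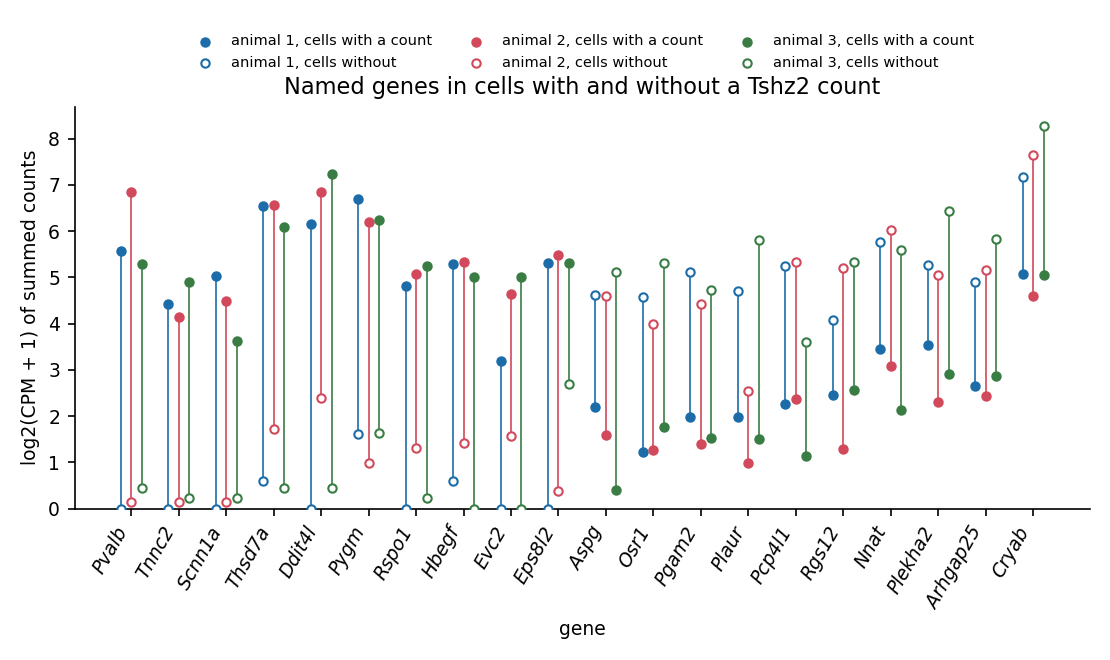
The 20 named genes (x axis) as log2(CPM + 1) of summed counts (y axis) in cells with a Tshz2 count (filled points) and without one (open points), with a line joining both sums of each animal (colour). The first 10 genes are higher and the last 10 lower with Tshz2 in all 3 animals.

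Among the other Teashirt genes, neither followed Tshz2 past the test in cells. Tshz1 had 6.84, 11.5 and 17.8 CPM with Tshz2 and 5.61, 4.35 and 9.14 without (log2 difference 0.91, SE 0.47, adjusted p = 0.454). Tshz3 had 49.0, 54.3 and 58.0 CPM with and 52.0, 42.4 and 24.4 without (0.51, SE 0.27, adjusted p = 0.481). By cluster, Tshz1 reached 39.8 CPM in cluster 6 and 24.4 in cluster 2 but was at 0 counts in cluster 10, where Tshz2 was highest. Tshz3 ranged from 26.2 CPM in cluster 4 to 87.5 in cluster 8. Of 8 corepressor genes listed as partners of such repressors, among them Ctbp1, Ctbp2 and Hdac1, 0 passed the edgeR test in either direction, and their median log2 difference was 0.09 against 0.06 for all genes. At an unadjusted p under 0.05, 1817 of all genes tested differed (13.6%) and 0 of these 8, too few genes to set them apart from that share. DESeq2 called 0 of the 8.

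Of 23 projection neuron transcription factors tested, 4 were higher with Tshz2 and 2 lower, with a median log2 difference of 0.43. Over all genes tested, 1.08% were called higher and 1.15% lower, with a median of 0.06. Mef2c, a MADS-box factor of maturing cortical neurons, had 2211, 1992 and 2124 CPM with and 1667, 1384 and 1266 without (0.56, SE 0.07, adjusted p = 0.01). Etv1, a marker of layer 5, rose from a mean of 59.1 to 180 CPM (1.82, SE 0.34), and Pou3f2 and Cux1, factors of the upper layers, rose by 4.21 and 1.38. Neurod6, a helix-loop-helix factor, fell from a mean of 212 to 87.3 CPM (-1.29, SE 0.13, adjusted p = 0.00497), and Osr1 was the other. Bcl11b was not called (log2 difference -0.60). Etv1, Osr1 and Bcl11b are also listed markers.

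The listed markers follow by layer class as a description only, and calls among them support nothing. Over all genes tested, 1.08% were called higher and 1.15% lower. All 4 layer 6 intratelencephalic markers were called lower with Tshz2 (Osr1, Oprk1, Car12 and Cdh9). So were Rprm, 1 of 4 layer 6 corticothalamic markers, and Cplx3, 1 of 4 layer 6b markers, which was lower in 2 of 3 animals. Of 5 markers of the middle layers and the retrosplenial cortex, Scnn1a, Tnnc2 and Hsd11b1 were called higher, while Rorb (log2 difference 0.49) and Whrn (1.83) were not called. Of 2 superficial markers 1 was called: Calb1, a calcium buffer, averaged 272 CPM with and 23.2 without (3.54, SE 0.34). Of 5 layer 5 extratelencephalic markers 2 were called higher. C1ql2, a secreted synaptic organiser, averaged 185 against 42.7 CPM, and Parm1 288 against 94.1 CPM. Fezf2 (0.44), Chst8 (0.28) and Bcl11b (-0.60, lower in 3 of 3 animals) were not called. Of 4 layer 5 intratelencephalic markers, Etv1 was called higher, while Deptor (-0.42), Il1rapl2 (-1.28) and Scx (-0.57) were not called. The glutamate transporters moved apart: Slc17a6 averaged 33.6 CPM with and 2.76 without (3.67, SE 0.60), and Slc17a7 117 with and 186 without (-0.67, SE 0.13). No tested marker of a non-neuronal class passed the test. The listed microglial and endothelial markers are not among the genes of the cells, and no meningeal marker was tested. The astrocyte markers Aqp4, Gja1 and Slc1a3 were higher in 3 of 3 animals, with 4, 1 and 1 counts in all without Tshz2. The 3 oligodendrocyte markers summed to 96.8 to 124 CPM with and 103 to 190 without. The 4 astrocyte markers summed to 0.551 to 8.72 CPM with and 0 to 0.513 without, and their part in the result was not tested.

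Across 22 sums of at least 10 cells per animal and cluster, the genes whose log2(CPM + 1) ran most like that of Tshz2 among 6370 genes were Scn1a, a voltage-gated sodium channel (Pearson r = 0.90), Tsc22d3 (0.90), Satb1, a chromatin organiser (0.89), Mllt3 (0.88), Dcx, the microtubule-binding doublecortin (0.88), and Dbpht2 (0.85). Those most unlike it were Nnat (-0.91), Sh3bgrl3 (-0.81), Cnrip1 (-0.80) and Slc17a7 (-0.80). Scn1a ran from 56.8 to 678 CPM and Nnat from 0 to 174 CPM over these sums, in which Tshz2 ran from 7.18 to 1182 CPM. These values describe the sums, which share animals and libraries, and carry no p.

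In the sections Tshz2 was concentrated in one zone. Spots were grouped by all genes but Tshz2, each gene centred within its section, into 10 zones. Zone 2, in which Cbln1, Nrep, Slc17a6 and Hsd11b1 led beside Tshz2 itself, held 260 of 413 Tshz2 counts of S4 and 224 of 348 of S8. It is 13.7% of the spots and held 63.6% of the counts over both sections. There Tshz2 stood at 267 CPM in S4 (exact 95% Poisson interval 235 to 301) and 241 CPM in S8 (210 to 274), and 78.4% and 81.1% of the spots had a count. Zone 6, led by Myl4, Trbc2, Hs3st2 and Fezf2, was next with 41.3 CPM in S4 (29.2 to 56.7) and 31.7 in S8 (20.1 to 47.5). Other zones seen in both sections ranged from 6.98 to 27.8 CPM. Zone 10, found in S4 alone and led by Arhgap6 and Slc29a4, had 1 Tshz2 count in 33 spots.

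**Figure D5:**
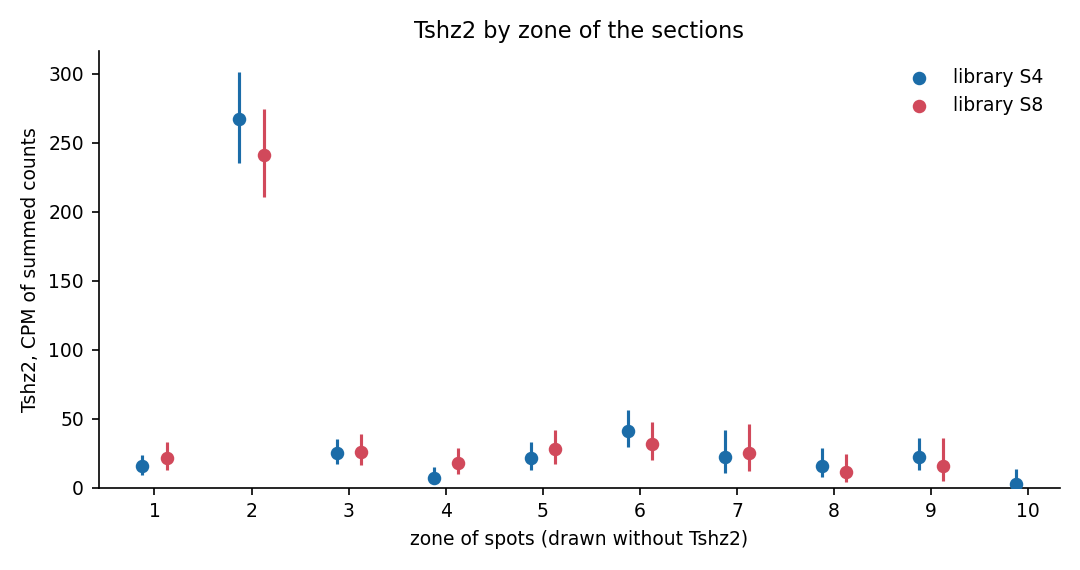
Tshz2 in CPM of summed counts (y axis, linear from 0) by zone (x axis) in each section library (colour), with exact 95% Poisson intervals that cover counting error only. Zone 2 stands at 267 and 241 CPM, and no other zone exceeds 41.3 CPM.

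Over whole sections the libraries were close. Tshz2 stood at 49.0 CPM in S4 (44.3 to 53.9) and 54.5 in S8 (48.9 to 60.5), with a count in 21.1% and 21.2% of spots. The median depth was 8266.5 counts per spot in S4 and 6705 in S8. After thinning each spot to 5000 counts, the shares were 16.2% in S4 and 19.2% in S8. Most spots with Tshz2 had a single count: 236 spots held 1, 93 held 2 and 89 held 3 or more, up to 9. Of the spots with 3 or more, 69 lay in zone 2 and 20 elsewhere. Among spots with C1ql2 55.4% had Tshz2 (62 of 112), against 19.1% of the rest. For Slc17a6 the share was 40.9% against 17.4%. Of 5 markers of the middle layers and the retrosplenial cortex, Scnn1a gave 45.8% against 20.6% and Hsd11b1 34.2% against 18.3%. Tnnc2 gave 9 of 14 spots against 20.9% of the rest. Whrn was nearer to the rest (25.1% against 20.6%), and Rorb was below it (14.9% of 471 spots against 23.2%). The 4 superficial markers were not alike. Otof went with Tshz2 in 7.57% of its 185 spots against 22.6% of the rest, Calb1 in 13.9% against 30.3%, and Cux2 in 15.4% against 22.9%. Lamp5, which encodes a lysosome-associated membrane protein, went the other way, with Tshz2 in 23.0% of its 1172 spots against 18.5% of the rest. Because a spot can hold several cells, a shared spot does not show a shared cell. In such sums, fewer cells of a type and less RNA per cell cannot be told apart.

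Spots with a Tshz2 count were compared with the other spots in sums per section, with the section as a block (edgeR). Of 12167 other genes, 527 were called higher (4.33%) and 458 lower (3.76%), together 8.1%. With 2 sections the fit has 1 residual degree of freedom for each gene, so these p-values measure mainly counting error. Without the section block 7 and 9 genes were called, DESeq2 called 46 and 42, and a split at 3 or more counts against 0 called 222 and 229.

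C1ql2 rose the most among the named genes, from 4.62 to 19.7 CPM in S4 and from 4.31 to 31.3 in S8 (log2 difference 2.45, SE 0.29). Cbln1, a synaptic organiser of the cerebellin family, rose from 6.64 to 23.3 and from 7.59 to 39.1 CPM (2.09, SE 0.24), and Nrep, a regulator linked to neural regeneration, from 62.8 to 218 and from 61.3 to 214 CPM (1.80, SE 0.10). Slc17a6 rose from 19.6 to 55.6 and from 17.8 to 56.9 CPM (1.57, SE 0.16). Sv2c, a synaptic vesicle protein, and Amn were higher by 1.32 and 1.26. In both sections each of these genes was higher with Tshz2. The lower genes were Syt17, a synaptotagmin (from 63.1 to 24.5 CPM in S4 and from 75.3 to 27.0 in S8, -1.42, SE 0.16), the myosin Myh7 (-1.41), the matrix proteoglycan Dcn (-1.37), the calcium sensor Hpcal1 (-1.34), the lipase Lpl (-1.34) and Spats2l (-1.34). The 9 of these 12 that are on no marker list, all but C1ql2, Slc17a6 and Dcn, had an edgeR adjusted p of 6.15e-05 or less. Without the section block 7 of the 12 lost the call, and with the split at 3 counts 2 did. DESeq2 gave an adjusted p for 2 of the 12 and called both.

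Tshz3 was higher in spots with Tshz2, at 49.6 against 33.5 CPM in S4 and 39.1 against 29.9 in S8 (0.49, SE 0.16, adjusted p = 0.0287, edgeR), and Tshz1 was not called (-0.34, SE 0.20, adjusted p = 0.368). Of 25 transcription factors tested, 7 were higher (Zfpm2, Etv1, Pou3f1, Bcl6, Ldb2, Fezf2 and Neurod6) and 5 lower (Nr2f2, Bhlhe22, Cux2, Rorb and Nr2f1). Zfpm2 had the largest rise of these (1.24, SE 0.20), and Nr2f2, an orphan nuclear receptor, the largest fall (-1.13, SE 0.16). Etv1, Fezf2, Cux2 and Rorb are also listed markers. Over all genes tested in spots, 4.33% were called higher and 3.76% lower. Of 8 corepressors, 0 were called by edgeR and 0 passed an unadjusted p under 0.05, where 19.0% of all genes did, again too few genes to set them apart. DESeq2 called 0 of the 3 for which it gave an adjusted p. The listed markers are again a description, and calls among them support nothing. Of the layer 5 extratelencephalic markers 4 of 5 were called higher (C1ql2, Parm1, Fezf2 and Chst8). Of 4 superficial markers 3 were called lower (Calb1, Cux2 and Otof), and Lamp5 was not called (0.23). Vwc2l was higher (1.69, SE 0.41) and Lypd1 lower (-0.36, SE 0.11).

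Markers of other cell types moved with Tshz2 in the spots. The 3 oligodendrocyte markers Mbp, Mobp and Mog were higher, and their sum was 1608 and 1817 CPM with Tshz2 against 1190.2 and 1279 without, in S4 and S8. Gad1 and Pvalb were higher and Vip lower among the GABAergic markers, Gja1 was higher among the astrocyte markers, and Hba-a1 and Hbb-bs were lower among the erythrocyte markers. Their part in the genes called was not tested.

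Of the 10057 genes tested in both assays under the same name, 126 were called higher in cells and 446 in spots. Over all genes tested in spots, 4.33% were called higher and 3.76% lower. Called higher in both assays were 49 genes, which is 38.9% of the cell list and 10.99% of the spot list. Both lists held Pygm, Rspo1, Eps8l2 and Scn1a, and the listed markers C1ql2, Scnn1a, Hsd11b1, Slc17a6, Pvalb, Etv1 and Parm1. Lower in both were 56 genes (39.4% of 142 and 13.9% of 403), Slc17a7, Rprm and Cplx3 among them. A few genes went opposite ways: 9 were higher in cells and lower in spots, and 6 the reverse. Calb1 is among the former, since it averaged 272 CPM in cells with Tshz2 against 23.2 without, but 94.7 CPM in spots with Tshz2 against 211 without (log2 difference -1.16, SE 0.10). Neurod6 is among the latter, at 87.3 against 212 CPM in cells and 98.6 against 68.3 CPM in spots (0.53, SE 0.11). The sections also hold tissue and cell types that the dissociated neurons do not represent, so the same name compares unlike mixtures.

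Over 19 sums of at least 10 spots per section and zone, the genes that ran most like Tshz2 among 7026 were Kcnj10, an inward rectifier potassium channel of glia (Pearson r = 0.81), Pcgf5 (0.80), Hsd11b1 (0.79), Ddt (0.78), Abhd3 (0.76) and Rit2, a neuronal small GTPase (0.75). Those most unlike it were Zfp580 (-0.90), Abi2 (-0.89), Grasp (-0.88) and Erc2 (-0.86). The zones share the sections and their depth, and these values carry no p.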

How the data were processed

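Gene counts were measured in 765 dissociated cells (11 samples, 3 animals) and in 1973 Visium spots (2 libraries). The authors deposited raw counts, as the values show: whole numbers for each gene in each cell or spot, not normalized. The submitters' processing notes name Seurat and Space Ranger, and the builds NCBIM37 and mm10, with no roles. The aligner, the filters, and whether cell counts are reads or molecules are not given in the sources used here, so no coordinates are printed, and intervals and floors (3 counts) cover counting error only. The deposited animal of each cell and section of each spot were used as other labels, as deposited by the authors. Counting was not stated to use strand.

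CPM (counts per 1000000 counts) were taken over summed cells or spots. Clusters (scanpy 1.11.5, Tshz2 left out, scaled to 10000, 2000 variable genes, 30 components, 15 neighbours, Leiden resolution 1, seed 1) carry no cell type names, and no doublet caller was run. With and without a Tshz2 count were compared in edgeR 4.0.16 (R 4.3.3; filterByExpr, TMM, quasi-likelihood test). Both sums of a block come from the same animal or section, and the block is that animal or section. Genes with an adjusted p (Benjamini-Hochberg, all genes) under 0.05 were called, with Tshz2 left out of the counts. DESeq2 1.42.0 was an alternative. The SE is the log2 difference divided by the square root of F. The fit was tested on simulated data: for cells it called 3 of 100 genes changed by 1 on the log2 scale and 72 of 100 changed by 2, with 3 false calls, and for spots 100 of 100 at either size, with 9 false calls. Exact binomial and Poisson intervals are at 95%. For cells, p-values measure the spread between 3 animals. For spots, with 2 libraries whose spread may be technical, they measure mainly counting error.

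The gene, the lists and the tests were chosen with earlier results of these data known. Named genes were those called and moved alike in every animal or section, with at least 20 CPM in the higher group, up to 10 each way for cells and 6 for spots by size of the log2 difference, leaving out predicted, ribosomal and mitochondrial genes. Likeness used the 6 highest and 4 lowest Pearson r of log2(CPM + 1) among genes at 20 CPM on average. List members are named for calls and by size, and some listed genes are not reported here and were left out of the lists' counts, medians and sums.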

Additional observations from a re-analysis of the deposited data

How the results depend on the processing

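Counts of called genes depended on the fit. For cells, leaving out 1 animal gave 9 to 239 higher and 4 to 209 lower genes (144 and 153 with all animals). DESeq2 gave 425 higher and 372 lower. A minimum of 1 on the log2 difference left 76 lower. Without the replicate block 73 were lower and 99 higher. For spots, the fit without the block gave 7 higher and 9 lower, DESeq2 46 and 42, the split at 3 counts against 0 gave 222 and 229, and the minimum of 1 left 55 and 62, against 527 and 458. DESeq2 gave no adjusted p for 15954 of 19137 genes of the spots. For Tshz2 itself, cluster 9 moved to 121 CPM as a mean over cells. Without the cell with the most counts in each animal, an alternative chosen after seeing the data, clusters 4 and 9 fell to 3.08 and 10.2 CPM. In S4 the level was 55.6 CPM as a mean over spots and 56.5 CPM without Gm42418 and mitochondrial genes in the total, which gave 66.2 CPM in S8. The share of spots with at least 2 counts was 9.69% in S4 and 8.73% in S8, and thinned spots gave 16.2% in S4 and 19.2% in S8. By dissection level, the anterior share moved to 70.1% when cells at 50 CPM or more were counted, also chosen after seeing the data. The other levels and shares by dissection level moved by less than 1 SD over animals under each alternative run, and no named gene reversed. Leaving out 1 of 3 animals cannot move a mean over animals by 1 SD, so for these levels and shares those runs could show no move. With few counts per spot, depth limits what a spot at 0 shows.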
